A study of Mus musculus with 8 samples.

Results

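The developmental transcription factor families described here were the rows of 4 m6A peak lists whose gene symbol carried the name of a Hox cluster (Hoxa to Hoxd), of Sox, Tbx, Pax, Irx, Lhx, Gata, Meis, Pbx, Runx, Zeb, Snai, Twist, Prrx or the sine oculis homeobox genes (Six2 and its relatives) followed by a digit, or of Fox followed by a letter and a digit, with the Foxo genes left out. The rule used the symbol alone and no measured value. It took 362 of 38705 peaks and 93 of 9779 gene symbols. Peaks that overlapped by at least 1 bp over the 4 libraries were joined into regions, which gave 201 regions on these genes of 21168 in all. By library, the families held 100 of 10103 peaks in control replicate 1, 94 of 9871 in control replicate 2, 95 of 9757 in starved replicate 1 and 73 of 8974 in starved replicate 2.

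The samples were mouse embryonic fibroblasts (MEFs), primary cells of wild type C57BL/6 embryos taken at day 13.5 and used at passages 5 to 6. Control cells received no treatment, and the starved group spent 2 h in nutrient-deprived medium. In MeRIP-seq, an antibody against N6-methyladenosine (m6A) pulls down fragmented polyA RNA, and a peak is a stretch where the immunoprecipitated (IP) reads exceed the input reads. Each group had 2 IP libraries with a matching input, and the study describes them as biological replicates. Whether they came from different embryos is not given in the sources used here.

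With 2 libraries against 2, the smallest two-sided p of an exact permutation test is 0.333, and no comparison between the groups could pass 0.05. The depth behind each value is unknown, because the lists hold no read counts, and a region without a call may have been too thinly covered to be called. The lists carry no strand, so antisense and overlapping genes cannot be told apart. A fold enrichment sets the IP reads of a peak against those of the input around it, and it tracks neither the amount of the transcript nor that of the protein. In bulk cultures, fewer cells of a type and less RNA per cell cannot be told apart.

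These families encode the DNA-binding proteins that give embryonic tissues their position and identity. Hox proteins specify position along the body and limb axes, Meis and Pbx are homeobox cofactors that bind DNA with them, and T-box, Sox, Fox, Gata and Runx proteins direct organ and lineage formation. Zeb, Snai and Twist proteins repress epithelial genes and maintain the mesenchymal state, to which fibroblasts belong. m6A is written by the METTL3 and METTL14 complex, most often at the core letters GGAC, and is usually dense near stop codons and in long exons. It marks transcripts for reader proteins that act on decay and translation, and developmental regulators are among its known carriers in embryonic cells.

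The sequences below carry the regions on which the comparison of starved with control cells turned, each 30 bases of GENCODE transcript sequence (build mm10) around the GGAC nearest to the centre of the region, read 5′ to 3′ on the coding strand of the gene. Capitals mark GGAC. The first 7 come from regions called in all 4 libraries whose starved and control fold enrichments did not overlap (22.9% of all such regions had both starved values higher and 18.0% both lower), the next 3 from regions that the starved pair of libraries called and no control library did (3.20% of all regions), and the last from the region with the highest enrichment among those that the control pair called and no starved library did (4.15% of all regions).
Foxk2, 3′ UTR, chr11:121307746-121307775, plus strand: ccagggggcattgGGACaagagaccctggg
Zeb2, coding sequence, chr2:44988743-44988772, minus strand: agctgcggagaagGGACggcgacgaggagg
Hoxd13, 3′ UTR, chr2:74670680-74670709, plus strand: attaggtgatttaGGACcgctgggagagtc
Irx1, coding sequence, chr13:71959892-71959921, minus strand: ccgagaaggccgaGGACgacgaggagatcg
Meis2, 3′ UTR, chr2:115863948-115863977, minus strand: agcataaacatagGGACtaagttaaacttg
Tbx3, coding sequence, chr5:119674187-119674216, plus strand: tgtatatacacccGGACagccccgctacgg
Tbx3, 3′ UTR, chr5:119683914-119683943, plus strand: tcgtgtgcctgttGGACcattagttctttt
Hoxb6, 5′ UTR, chr11:96292480-96292509, plus strand: gcagcattcttttGGACaccacacctaggt
Runx1t1, coding sequence, chr4:13865892-13865921, plus strand: gatgtcaggaagcGGACcgggaagaactga
Tbx18, 3′ UTR, chr9:87703736-87703765, minus strand: aggcctcctaggaGGACcaaggaggaagat
Six4, coding sequence, chr12:73109083-73109112, minus strand: ttcttttattcagGGACacaatggagttat
The letters lay 8 nt from the centre of the Six4 region, 9 nt from that of Zeb2 and 293 nt from that of Hoxd13. The printed GGAC lay outside some of the compared peaks in Foxk2, Zeb2, Meis2 and the Tbx3 3′ UTR. These were the peaks of control replicate 2 and starved replicate 2 in Foxk2, and of control replicate 1 in Zeb2. They were those of control replicate 2 in Meis2, and of control replicate 1 and starved replicate 2 in Tbx3. The Foxc1 region of the control libraries held 0 GGAC. A match says where the letters are, and the method does not resolve which adenosine was methylated.

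Of 166 annotated coding genes that the naming rule covers, 91 had a peak in at least 1 library. The other two symbols, Hoxa11os and Zeb2os, are non-coding antisense RNAs. Families differed in how many members were marked: all 4 Pbx genes, both Zeb genes and both Prrx genes had a peak, against 2 of 9 Pax genes, 1 of 8 Lhx genes and 18 of 40 Fox genes. The 22 Fox genes without a peak included Foxa1, Foxa2 and Foxa3 of endoderm, and the Pax genes without one included Pax3, Pax6 and Pax7.

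Members with a peak numbered 65 and 54 in control against 58 and 46 in starved cells. The groups overlapped, and the mean difference of -7.5 genes had p = 0.667 in the exact permutation test over libraries, which gave every p below. With peaks of a false discovery rate under 20% only, the difference turned to 2.5 genes. Over all genes the libraries held 6387, 6171, 6159 and 5839, so the shortest list was starved replicate 2 in both cases. A peak in all 4 libraries was found for 22 of the 93 members (23.7%) and for 29.2% of all genes. Those 22 were Foxk1, Foxk2, Foxm1, Foxn3, Foxp1, Foxp2, Foxp4, Hoxc6, Hoxd13, Irx1, Meis2, Prrx1, Runx1, Runx1t1, Sox2, Sox5, Sox11, Tbx3, Twist1, Zeb1, Zeb2 and Zeb2os.

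**Figure D1:**
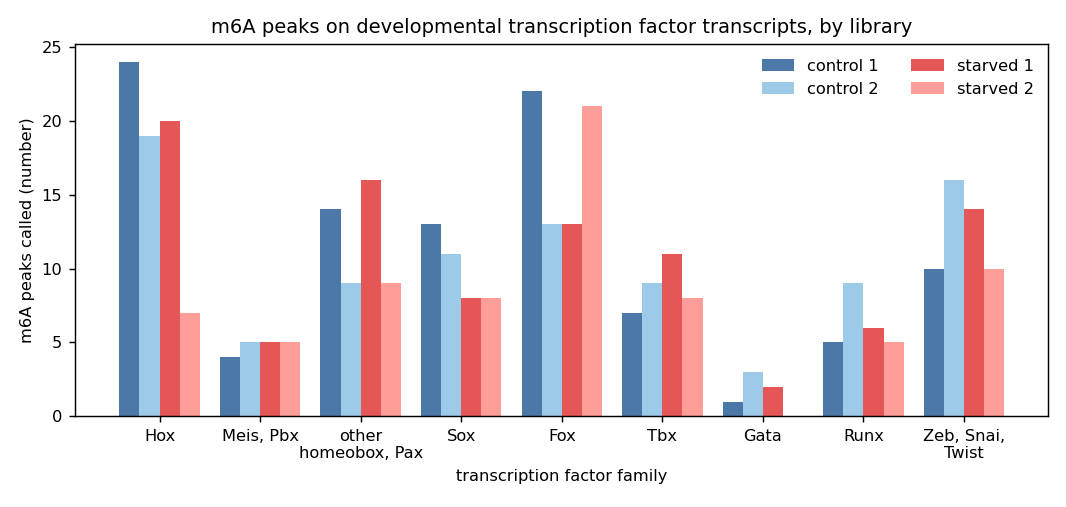
Number of m6A peaks called on each transcription factor family (vertical axis) in the 2 control and the 2 starved IP libraries (bars, 1 per library). Starved replicate 2 had 7 Hox peaks against 19 to 24 in the other libraries, and Sox had 13 and 11 peaks in control and 8 in each starved library. Peaks of any false discovery rate are counted.

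Across the families, 21 of 201 regions were called in all 4 libraries. Of these, 4 (19.0%) had both starved values above both control values, in Foxk2, Zeb1, Zeb2 and Zeb2os, while 22.9% of all such regions did. Another 5 (23.8%) had both starved values below both control values, in Hoxd13, Irx1, Meis2 and in 2 regions of Tbx3, while 18.0% of all such regions did. Both shares lay near those of all regions. Of the 4 higher ones, 3 were on Zeb genes and their antisense RNA, which held 6 of the 21 regions. The 5 lower ones were on homeobox and T-box genes. A direction by family was not tested on so few regions. A joined region can hold peaks that lie side by side: in 3 of these 9 regions, those of Foxk2, Zeb1 and the Tbx3 3′ UTR, the 4 peaks whose values were compared shared no base, as in 14.7% of all regions with non-overlapping groups. With peaks of a false discovery rate under 20% only, the regions of Hoxd13, Meis2, Zeb1 and Zeb2 and the coding region of Tbx3 were still called in all 4 libraries, Zeb2os lost every call, and the others lost some.

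**Figure D2:**
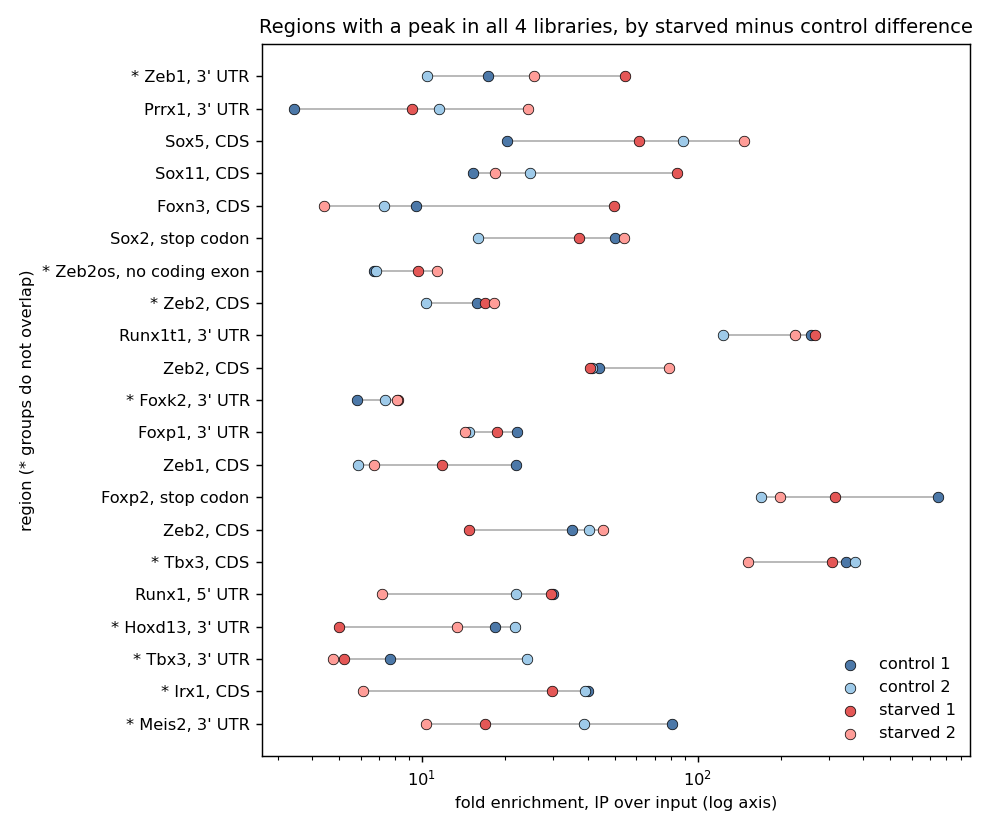
Fold enrichment of IP over input (horizontal log axis) in each library for the 21 regions called in all 4, sorted by the starved minus control difference of mean log2 values, from Zeb1 (1.47) at the top to Meis2 (-2.08) at the bottom. Labels give the transcript segment at the centre of the joined region, and asterisks mark the 9 regions in which the 2 starved and the 2 control points did not overlap.

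The library medians over these 21 regions were 4.46 and 4.46 in control against 4.88 and 4.19 in starved cells on the log2 scale. The starved libraries lay on either side of control, with a mean difference of 0.08 (exact p = 1.00), which turned to -0.20 with peaks of a false discovery rate under 20% only. Over the 2257 regions of all genes the medians were 4.195 and 4.05 against 4.34 and 4.33, a difference of 0.21 (exact p = 0.333). The mean was higher in starved cells in 11 of the 21 regions and in 54.2% of all.

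Regions that both libraries of one group called and neither library of the other did numbered 4 for starved cells (1.99% of 201) and 7 for control cells (3.48%). The shares over all regions were 3.20% and 4.15%. Of the 4 starved-only regions, 3 lay in the Hoxb6 5′ UTR, the Runx1t1 coding sequence and the Tbx18 3′ UTR, and the 7 control-only regions lay in Six4, Foxc1, Hoxa5, Irx5, Gata2 and in 2 places in Runx1. Neither share exceeded that of all regions. With peaks of a false discovery rate under 20% only, each of these 3 starved-only regions kept a call in 1 starved library. The Foxc1, Hoxa5 and Six4 regions kept both control calls, and the other 4 control-only regions kept none. With lists of equal length the Gata2 region and the Runx1 coding region each lost 1 call. With an overlap of at least 50% of the shorter peak, the Six4 region kept 1 control call, and 6 control-only regions remained. By gene, 2 of 93 members (2.15%) were called only in both starved libraries, among them Foxj2, and 2 only in both control libraries, Foxs1 and Hoxa5, against 3.19% and 4.56% of all genes.

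**Figure D3:**
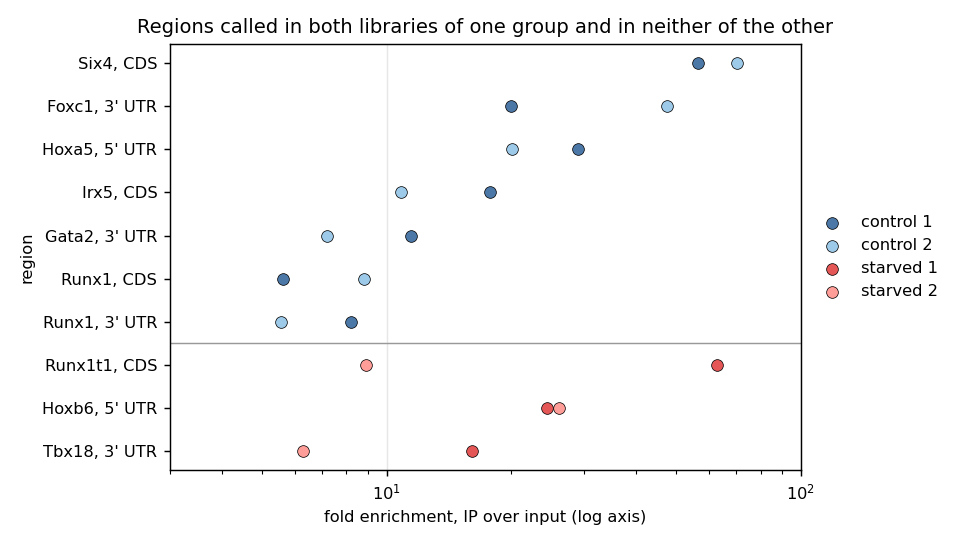
Fold enrichment of IP over input (horizontal log axis) in the 2 libraries that called each region, for the 7 regions of control cells (above the line) and 3 of the 4 of starved cells (below it). Foxc1 had 20.03 and 47.5 in control cells, and Runx1t1 had 62.9 in starved replicate 1 and 8.93 in starved replicate 2.

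Transcripts of the Hox clusters held 48 of the 201 regions. Peaks numbered 24 and 19 in control against 20 and 7 in starved cells. The low count belonged to starved replicate 2 alone, and the mean difference of -8 peaks had p = 0.667 in the exact permutation test. Without that library the difference was -1.5 peaks. Of the 48 Hox regions, 34 (70.8%) were called in 1 library only, against 56.2% of the regions of the other families and 56.2% of all regions.

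Among the 39 Hox genes, 27 had a peak. By position along the body axis these were 5 of 12 anterior genes (paralog groups 1 to 4), 9 of 11 central genes (5 to 8) and 13 of 16 posterior genes (9 to 13). The posterior set was counted 11 and 6 times in control and 7 and 2 times in starved libraries. By cluster, a peak was found on 8 of 11 Hoxa genes, 6 of 10 Hoxb genes, 8 of 9 Hoxc genes and 5 of 9 Hoxd genes. The posterior genes without one were Hoxb13, Hoxc12 and Hoxd9.

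**Figure D4:**
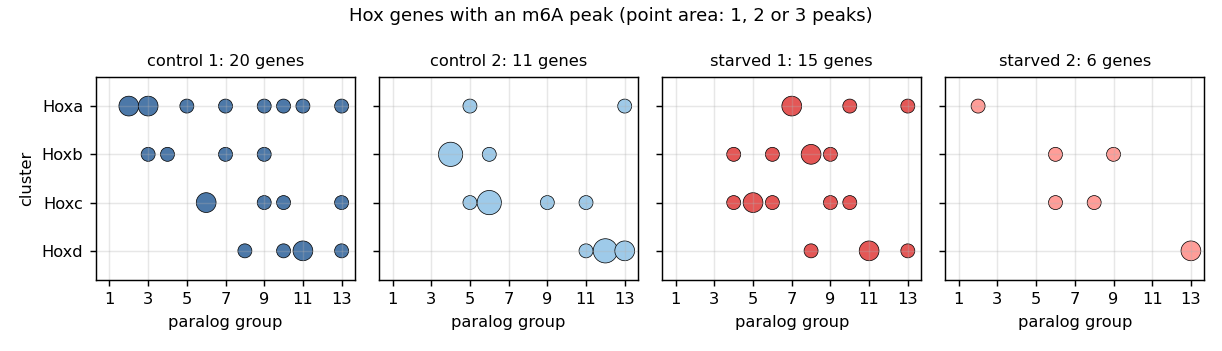
Hox genes with an m6A peak in each IP library, placed by cluster (rows) and by paralog group (horizontal axis, anterior to posterior), with the area of a point giving 1, 2 or 3 peaks. Control replicate 1 showed 20 genes, control replicate 2 showed 11, starved replicate 1 showed 15 and starved replicate 2 showed 6.

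Only Hoxd13, a posterior gene of digit and genital development, had a Hox region in all 4 libraries. Its 3′ UTR region (chr2:74669886-74670894) had fold enrichments of 18.4 and 21.8 in control and 5.02 and 13.4 in starved cells. Both starved values lay below both control values, with a log2 difference of -1.29 (SD 0.17 in control and 1.00 in starved cells, n = 2 each). Without starved replicate 1 it was -0.58. Hoxc6 was the other Hox gene marked in every library, through different regions: its main coding region had 16.4, 9.41 and 37.3 in both control libraries and starved replicate 2.

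Hoxa13, Hoxb4, Hoxb9, Hoxb6, Hoxc9 and Hoxd11 had a peak in 3 libraries each. Hoxa13, the limb and hindgut paralog of Hoxd13, had 24.2, 22.9 and 29.7 in a region near its stop codon. These were called in both control libraries and starved replicate 1. Hoxc9, which patterns the thoracic region, had 116, 27.5 and 34.5 at its stop codon in the same 3 libraries. Hoxd11 had 9.84, 8.03 and 6.80 in a region at its stop codon. Hoxb4 had 24.6, 13.3 and 9.44 in a region of its 3′ UTR. Both were again without a call in starved replicate 2. Segments here are those of the joined regions. In Hoxd11 only the peak of control replicate 1 was centred at the stop codon, and the others had their centres outside its coding exons. In Hoxa13 only that of control replicate 2 was, and the others were centred in the 3′ UTR. In Hoxb4 that of control replicate 1 was centred at the stop codon. These 4 regions were called in the same 3 libraries.

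Hoxa5, which acts in lung and skeletal patterning, was marked only in control cells, with 29.0 and 20.1 in a region centred in the 5′ UTR (chr6:52204232-52204562). The Hoxb6 5′ UTR region (chr11:96292476-96292678) was called only in starved cells, with 24.5 and 26.0. Calls in both replicates of a group are part of how such regions were defined, so that agreement adds nothing. Hoxb6 also had a coding region at 70.8 in control replicate 2. The remaining Hox genes were marked in 1 or 2 libraries. Hoxa2, Hoxa7, Hoxa10, Hoxc5, Hoxc10 and Hoxd8 were marked in 2, and Hoxa3, Hoxa9, Hoxa11, Hoxb3, Hoxb7, Hoxb8, Hoxc4, Hoxc8, Hoxc11, Hoxc13, Hoxd10 and Hoxd12 in 1, at fold enrichments from 4.74 for Hoxc11 to 258 for Hoxb8. Exons of other genes lay at the centre of one region each of Hoxa7, Hoxb3, Hoxd11 and Hoxa11os, so these may belong to a neighbour.

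The homeobox cofactors Meis and Pbx held 4 and 5 peaks in control against 5 in each starved library, a difference of 0.5 (exact p = 1.00). Meis2, the cofactor with a region in all 4 libraries, had 80.7 and 38.8 in control and 16.9 and 10.4 in starved cells in its 3′ UTR (chr2:115862970-115864472). The highest values did not overlap between groups. Their log2 difference was -2.08 (SD 0.75 and 0.50, n = 2 each), the most negative of the 21 regions called in every library. The 38.8 of control replicate 2 came from a peak centred at the stop codon. A second peak of that library, at 16.3 in the 3′ UTR, lay below the 16.9 of starved replicate 1. Meis1 had 55.4 and 18.6 in control and 10.9 in starved replicate 1 in its 5′ UTR, with no call in starved replicate 2.

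The other homeobox and Pax genes held 14 and 9 peaks in control against 16 and 9 in the starved libraries, a difference of 1 (exact p = 1.00). Prrx1, a marker of limb mesenchyme, had 7 regions, and the one in all 4 libraries (3′ UTR, chr1:163256987-163257942) had 3.45 and 11.5 in control and 9.17 and 24.3 in starved cells, which overlapped. Irx1 had 39.9 and 39.2 in control and 29.7 and 6.11 in starved cells within its coding sequence (chr13:71959419-71960274). Its control values were nearly equal while the starved replicates were far apart, and the log2 difference was -1.55 (SD 0.02 and 1.61, n = 2 each). Without starved replicate 2 it was -0.41.

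The sine oculis homeobox genes act with Eya proteins in muscle, kidney and sensory organ formation. Six4 had 5 regions, and one of them, a coding region (chr12:73108898-73109349), had 56.5 and 70.4 in control and no call in starved cells. The 2 control peaks overlapped only at their ends, by less than 50% of the shorter one. Starved replicate 1 had another Six4 coding peak, at 56.7, and starved replicate 2 had no Six4 peak at all. Six2 had 44.9, 12.1 and 42.4 in its 3′ UTR in both control libraries and starved replicate 2.

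Irx5 was called only in control cells in one coding region (chr8:92360512-92361040), at 17.8 and 10.8, while another Irx5 coding region had 11.7 in starved replicate 1. Irx2, the Irx gene with the most regions, had 10.8 in control replicate 1 and 23.6 and 43.5 in the starved libraries in a coding region that control replicate 2 lacked. Lhx9 had 3 regions of 1 library each, at 5.29 to 23.3. Pax8 and Pax9 each had 1 peak in 1 library, and the Pax8 peak, in starved replicate 2, had the second highest value of these families at a single library, 437, without a replicate.

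Sox proteins bend DNA through an HMG box and direct neural crest, cartilage and neural lineages. Sox peaks numbered 13 and 11 in control against 8 and 8 in the starved libraries. The groups did not overlap, and the difference of -4 peaks reached the smallest p the design allows, 0.333. Single Sox genes did not all follow this order: Sox9 had 0 and 2 peaks in control and 3 and 1 in starved cells, and Sox5 had 1 and 2 against 2 and 3. Sox6 had 3 peaks, all in control replicate 1, and Sox4 had 4 and 1 in control against 0 and 1. The Sox4 and Sox6 peaks of control replicate 1 had false discovery rates of 21.5% to 84.7%. The lower Sox counts of starved cells were lost when only peaks of a false discovery rate under 20% were kept. Control replicate 1 then had the fewest Sox peaks, and control replicate 2 and both starved libraries had equal counts.

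The 3 Sox regions present in every library had higher mean enrichment in starved cells, but in none of them were the groups apart. Sox5 had 20.3 and 88.8 in control and 61.3 and 147 in starved cells in its coding sequence. Sox11, a factor of neural and mesenchymal progenitors, had 15.3 and 24.6 against 84.0 and 18.4. Sox2, the pluripotency and neural stem cell factor, had 50.1 and 15.96 against 37.0 and 54.0 in a region around its stop codon, where the 4 peaks shared no base. Sox9, the regulator of cartilage formation, had 30.5, 39.7 and 78.03 in its 3′ UTR in control replicate 2 and both starved libraries.

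Forkhead (Fox) genes held 22 and 13 peaks in control against 13 and 21 in the starved libraries, a difference of -0.5 (exact p = 1.00). Foxp2 is a repressor active in brain and lung development. It had the highest enrichment of all these families, 747 and 170 in control and 314 and 200 in starved cells. The values came from a region around its stop codon (chr6:15437877-15438855), and the groups overlapped. Its paralog Foxp1 had 22.2 and 14.8 against 18.7 and 14.4 in its 3′ UTR. Foxn3 had 9.51 and 7.27 against 49.7 and 4.42 in its coding sequence, so that the starved replicates lay on either side of control.

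Foxk2, a forkhead factor that represses autophagy genes in fed cells, had one region, in its 3′ UTR (chr11:121306768-121309140), with 5.83 and 7.32 in control against 8.22 and 8.11 in starved cells. Both starved values lay above both control values, and the log2 difference was small, 0.32 (SD 0.23 and 0.01, n = 2 each). The only starved peak to share bases with that of control replicate 2 was the lower peak of starved replicate 2, at 5.74, which lay below it. Its paralog Foxk1 had 4 regions, none in all 4 libraries. One 3′ UTR region of Foxk1 had 12.1 in control replicate 1 and 4.66 and 8.71 in the starved libraries, and another had 10.8 in control replicate 2 and 12.7 and 10.4 in the starved libraries.

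Foxc1, a factor of mesenchyme and eye development, was called only in control cells in one 3′ UTR region (chr13:31810065-31810414), at 20.03 and 47.5. By gene, Foxs1 was called only in both control libraries and Foxj2 only in both starved libraries, each through a different region in each replicate. The Foxp3 region held exons of Ccdc22 at its centre and the Foxj2 5′ UTR region those of a predicted gene, and neither can be assigned to the Fox gene with certainty. In all, 7 member regions held exons of another gene at their centre.

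T-box peaks numbered 7 and 9 in control against 11 and 8 in the starved libraries, a difference of 1.5 (exact p = 0.667). Tbx3, which acts in limb and mammary development, had 6 regions and supplied both T-box regions present in every library. Its coding region (chr5:119674026-119674293) had 346 and 373 in control and 307 and 152 in starved cells. Its 3′ UTR region (chr5:119683126-119684161) had 7.65 and 24.1 against 5.23 and 4.77. In both, the starved values lay below the control values, with log2 differences of -0.73 (SD 0.08 and 0.72) and -1.44 (SD 1.17 and 0.09, n = 2 each). Without control replicate 2 the difference in the 3′ UTR region was -0.55, for starved replicate 1 alone, since the peak of starved replicate 2 shares no base with that of control replicate 1, and without starved replicate 2 that in the coding region was -0.23.

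Tbx3 also had a 5′ UTR region that did not follow this order, with 5.95 and 11.5 in control and 11.4 in starved replicate 2. Tbx18, a factor of heart and ureter mesenchyme, had a 3′ UTR region (chr9:87703436-87703790) called only in starved cells, at 16.1 and 6.28. Its other 3′ UTR region had 7.67 in control replicate 2, and its stop codon region had 4.42 there and 25.4 in starved replicate 1, so the gene itself was not limited to starved cells.

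Gata peaks were few, 1 and 3 in control against 2 and 0 in the starved libraries (exact p = 0.667). Gata2, which is needed in blood progenitors and the urogenital tract, had a 3′ UTR region (chr6:88205195-88206133) called only in control cells, at 11.5 and 7.17. Another Gata2 3′ UTR region had 17.6 in starved replicate 1. Gata3 had 13.5 in control replicate 2 and Gata6 had 20.9 in starved replicate 1, 1 peak each.

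Runx peaks numbered 5 and 9 in control against 6 and 5 in the starved libraries, a difference of -1.5 (exact p = 1.00). Runx1, a regulator of blood and mesenchymal cells, had 6 regions, of which 2 were called only in control cells. Its coding region (chr16:92688889-92689132) had 5.62 and 8.82, and its 3′ UTR region (chr16:92603564-92603940) had 8.2 and 5.57. All 4 of these values were low against the median of 14.5 over the peaks of these families. The 5′ UTR region of Runx1 was called in every library, with 29.9 and 22.0 in control against 29.4 and 7.15 in starved cells, and another 3′ UTR region had 35.4 in control replicate 2 and 7.19 and 72.0 in the starved libraries.

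Runx1t1 matched the naming rule but encodes a corepressor that lacks the DNA-binding Runt domain. It had 259 and 124 in control and 267 and 227 in starved cells in its 3′ UTR, with overlapping groups. One of its coding regions (chr4:13865831-13866032) was called only in starved cells, at 62.9 and 8.93. The replicates of that region lay far apart, with an SD of 1.99 on the log2 scale.

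The Zeb, Snai and Twist genes held 10 and 16 peaks in control against 14 and 10 in the starved libraries, a difference of -1 (exact p = 1.00). In this set, 6 of 19 regions (31.6%) were called in every library, against 10.4% over all the families and 10.7% of all regions. All 6 lay on Zeb genes or on Zeb2os. None of the 6 was lower in both starved libraries than in both control libraries, where 18.0% of all regions called in every library were. A set of 6 regions is too small to tell these shares apart.

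Zeb1, a repressor of epithelial cadherin, had a region that ran from the end of its coding sequence into its 3′ UTR, with highest values of 17.4 and 10.4 in control and 54.7 and 25.4 in starved cells. These highest values did not overlap between groups, and their log2 difference of 1.47 (SD 0.53 and 0.78, n = 2 each) topped the 21 regions, or was 0.92 without starved replicate 1. Both starved values came from peaks centred in the coding sequence, while the control values came from peaks centred in the 3′ UTR. Control replicate 2 also had a coding peak there, at 6.38, and starved replicate 2 a 3′ UTR peak, at 6.91, so in the 3′ UTR part starved replicate 2 lay below both control values. An internal coding region of Zeb1 was not ordered, with 22.0 and 5.87 against 11.8 and 6.73.

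Zeb2 had 7 regions and 19 peaks, more peaks than any other member. Its coding region near the stop codon (chr2:44988302-44989153) had 15.8 and 10.4 in control and 17.0 and 18.3 in starved cells, a log2 difference of 0.46 (SD 0.43 and 0.07, n = 2 each), or 0.16 without control replicate 2. Both starved values were higher, by little over control replicate 1. In the same transcript, one internal coding region had 35.1 and 40.4 against 14.8 and 45.5, and another had 43.8 and 41.5 against 40.7 and 78.9, so neither was ordered.

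Zeb2os, the non-coding RNA antisense to Zeb2, had a region (chr2:45113135-45113606) with 6.71 and 6.83 in control against 9.66 and 11.4 in starved cells. The groups did not overlap, with a log2 difference of 0.63 (SD 0.02 and 0.17, n = 2 each). Twist1, which drives mesenchymal fate, had 53.4 in control replicate 2 and 30.8 and 58.5 in the starved libraries in its 3′ UTR, and 128, 9.21 and 7.83 in its coding sequence in both control libraries and starved replicate 2. Snai2 had 7.72 and 9.02 in control and 5.38 in starved replicate 1 in a region at its stop codon. Snai1 had 2 regions, each in 1 library.

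The median fold enrichment of the families' peaks was 14.9 and 13.4 in control against 15.4 and 14.4 in the starved libraries. The groups overlapped, with a log2 difference of 0.08 (exact p = 0.667). Over all peaks the medians were 12.2 and 12.3 against 14.6 and 14.7, a log2 difference of 0.26 at the smallest possible p, 0.333. In the control libraries the families thus lay above the median of all peaks, and in starved replicate 2 below it. The share of peaks at the upper limit of the score, which is 10 times the negative log10 of the p-value and stops at 3100, was 14.0% and 12.8% in control against 26.3% and 30.1% in the starved libraries (exact p = 0.333). All peaks showed 17.0% and 13.2% against 28.5% and 27.8%, so this was shared by the whole lists.

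Of the 362 peaks, 348 had their centre in an exon of a coding transcript of the named gene. The coding sequence held 33.7% and 38.6% of them in control against 39.6% and 36.6% in the starved libraries (exact p = 0.667), and the 3′ UTR 49.0% and 42.05% against 45.1% and 50.7%. All peaks were more often coding, 44.7% to 47.1%, and less often in the 3′ UTR, 35.4% to 37.9%. In every library the families differed from all peaks in this direction, and the difference was not tested. The last exon held 60.4% to 71.4% of the peaks, against 58.6% to 61.9% of all. The exon that held the peak had a median length of 1495 to 1972 nt, against 1328 to 1448.5 nt over all peaks.

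Peaks within 100 nt of the stop codon made up 12.2% and 10.2% of the families' peaks in control against 7.69% and 4.23% in the starved libraries. The groups did not overlap, and the difference of -5.28 percentage points reached the smallest possible p, 0.333, and was -1.39 points with peaks of a false discovery rate under 20% only. Over all peaks the share was 12.98% and 12.3% against 12.2% and 12.6%. The families' difference rested on Hox transcripts: these had 9 and 3 stop codon peaks in control against 2 and 0 in the starved libraries, of 24, 16, 18 and 7 placed peaks. The other families had 3 and 6 against 5 and 3, with overlapping groups. The Hox set was looked at separately after this difference had been seen, and starved replicate 2 had few Hox peaks of any position, 7 in all.

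GGAC was present on the transcript strand within 200 nt of spliced sequence at the centre of 59.2% and 63.6% of the families' peaks in control and of 69.2% and 71.8% in starved libraries. The starved libraries were both higher, by a mean of 9.12 percentage points at the smallest possible p, 0.333. The groups overlapped (exact p = 0.667) with a 100 nt window, at 7.88 points, and with peaks of a false discovery rate under 20% only, at 7.59 points. Over all peaks the shares were 62.1% and 63.5% against 64.6% and 64.6%, a difference of 1.78 points with the same p. In the Hox genes the shares were 62.5% and 62.5% against 72.2% and 42.9%, and in the other families 58.1% and 63.9% against 68.5% and 75.0%. The groups were apart in the other families and not in the Hox genes, where starved replicate 2 had GGAC in 3 of 7 placed peaks. This split is the one made above for the stop codon peaks, and it was not tested. With the broader motif DRACH (A, G or T, then A or G, then AC, then A, C or T) the difference was 0.85 points (exact p = 0.667), since 96.9% to 98.9% of windows held it.

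**Figure D5:**
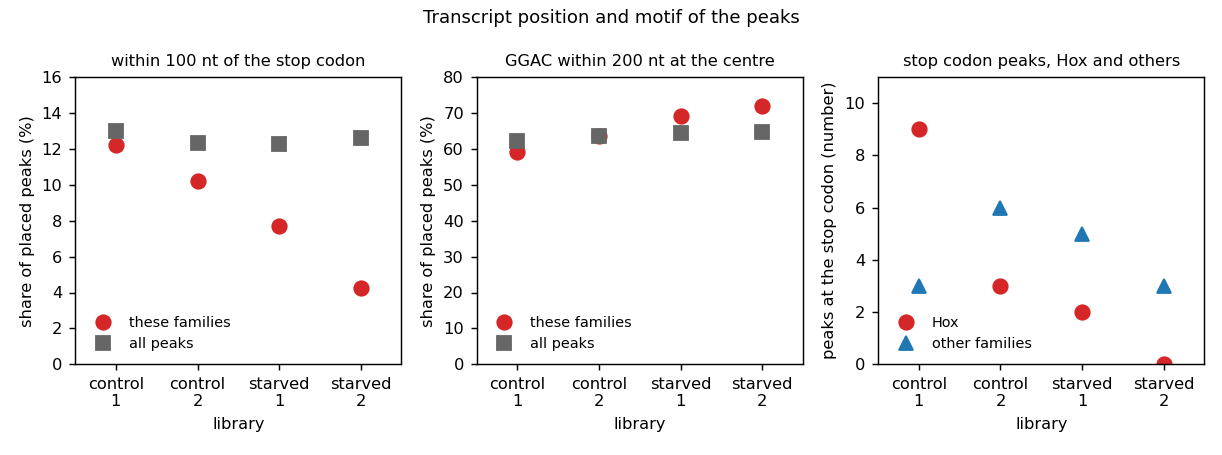
Left and middle, share of placed peaks within 100 nt of the stop codon and with GGAC in the 200 nt at the peak centre (vertical axes, percent), for these families (circles) and all peaks (squares) in each library. Right, number of stop codon peaks on Hox genes (circles) and on the other families (triangles), from 9 Hox peaks in control replicate 1 to 0 in starved replicate 2.

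Partners of these families were examined as a list of 24 genes, of which 20 had a peak, 15 and 15 in control against 14 and 11 in the starved libraries. Zfpm1, Eya2, Ldb2 and Tle2 had none. Of their 44 regions, 6 were called in all 4 libraries, 1 with both starved values above control and 2 with both below. Over all such regions these shares were 22.9% and 18.0%. Another 3 of the 44 were called only in both starved libraries and 1 only in both control libraries, against 3.20% and 4.15% of all regions. These small counts were not tested. The partners with the most regions were Zfpm2, a Gata cofactor, and the Groucho corepressor Tle1, with 5 each. In the Zfpm2 region of all 4 libraries (chr15:41102503-41103595) the values were 12.2 and 23.8 in control against 39.5 and 49.1 in starved cells. Both regions with lower starved values lay on Tcf3, a bHLH partner, which had 15.6 and 16.2 against 8.98 and 7.99, and on the TALE homeobox gene Pknox1, which had 67.5 and 44.5 against 18.2 and 37.6. Tcf4, a partner of Twist1, had 4 regions, and one of them had 6.76, 4.78 and 8.67 in control replicate 1 and the starved libraries.

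Markers of the labelled cell type and of others were read from the same lists, which show methylated fragments and not levels. Of 10 fibroblast markers, 6 had a peak, with Pdgfra and Pdgfrb marked in all 4 libraries and Col1a1, Vim, Dcn and Lum in none. A peak was found on 3 of 5 epithelial, 2 of 4 endothelial, 1 of 4 blood and 1 of 4 skeletal muscle markers. Neural markers had 4 of 5, among them Nes, with 215 and 141 in control against 145 and 145 in starved cells. Sox2, another of them, is itself a member of these families and so not a separate marker. Genes with a peak numbered 4 and 5 in control against 5 and 4 in the starved libraries for fibroblasts and 3 in each library for neural markers. Their part in the results above was not tested.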

How the data were processed

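The authors aligned the reads to mm10 with HISAT2 2.0.4 and called peaks on each IP library against its input with MACS2, keeping those on mRNA exons. The deposited lists give the fold enrichment of each peak as a ratio of IP to local input, a score of -10 times log10 of p, and a false discovery rate in percent. Column names are those of an earlier MACS series than the one named, which leaves the version open. A deposited table of differential sites, holding the authors' own fold changes and p-values, was not used, and the 4 input samples had no list used here. The members and gene lists were chosen with earlier results of these data known. Starts were raised by 1 to count from 1. A library's value in a region was its highest peak. Peak centres were placed on the coding transcript of the gene with the longest coding sequence among those with an exon at the centre (GENCODE M21). Regions of one gene, as in Prrx1, can therefore refer to different transcripts and stop codons. Group means were compared over libraries by two-sided exact permutation with Python 3.11.15, numpy 2.4.6 and pandas 2.3.3, not over single peaks. Regions named are all those with non-overlapping groups or calls in 1 group only, every Hox gene and the gene of each family with the most regions, except a few that are not reported here. Steps were tested on simulated data. Alternatives were other fold and false discovery rate minimums, lists of equal length, genes by annotated exon, overlaps of 50%, other windows, and leaving out each library. The number of peaks per list, 8974 to 10103, limits the precision of each share.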

Additional observations from a re-analysis of the deposited data

How the results depend on the processing

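With peaks of a false discovery rate under 20% only, the difference in peaks per library became 6.5 and that in genes 2.5, both reversed, the median over the regions of all 4 libraries became -0.20, and the counts of regions became 2 starved-only, 2 higher and 3 lower. With a fold enrichment of at least 4 that median was -0.042. The median enrichment of the peaks reversed to -0.029 with lists of equal length and to -0.086 without peaks at the score limit, and the coding share reversed to -0.12 points with 200 nt at the stop codon. The cause was not tested. Without each library in turn the coding share differed by -0.55 to 4.42 points, the median over regions by -0.23 to 0.15, starved-only regions numbered 10 to 42, control-only regions 12 to 45, higher regions 8 to 14 and lower regions 6 to 11, since fewer libraries must then agree. The coding share turned negative without control replicate 1 and the median over regions without starved replicate 2. The peak count differed by -24 to -2, the gene count by -13.5 to -1.5, the stop codon share by -7.01 to -3.54 points and the GGAC share by 6.89 to 11.3 points. For the single regions no value that could be computed turned direction. Of these values, 8 were counted as moved, by more than 1 SD or by a lost call. This count understates the lost calls. With peaks of a false discovery rate under 20% only, Foxk2, Gata2, Irx5, Zeb2os, the Tbx3 3′ UTR and both control-only Runx1 regions gave no value and were left out of it. Irx1 lost its call in starved replicate 2 there, and its difference went from -1.55 to -0.41, but it was counted as unchanged. The SD of a pair of libraries is wide, and several of the other 164 values moved by over 1.5 times, with examples given beside the regions.

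The labels give replicate numbers and do not say whether same-numbered libraries were paired. The deviations of same-numbered libraries had a correlation of -0.02 over 2257 regions, which cannot settle whether they were handled together. With the replicate block, by exact sign flips whose smallest p is 0.5, the stop codon share differed by -5.28 points (p = 0.5) and the GGAC share by 9.12 points (p = 0.5), and no call changed, as none was possible.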
